A study of Mus musculus with 6 samples.

Results

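AGO2-bound regions on miRNA hairpin loci were described in newborn mouse brain. AGO2 clusters, regions where reads crosslinked to AGO2 pile up, were taken as members when they overlapped, on the same strand, a gene that RefSeq (GRCm38.p6, the assembly called mm10) lists as a miRNA with a symbol starting in Mir. Of 359172, 616014 and 616005 clusters in WT, Mov10 Deletion replicate 1 and Mov10 Deletion replicate 2, 691, 537 and 535 lay on hairpins, which is 0.192%, 0.0872% and 0.0868% of all clusters. They covered 335, 317 and 317 of the 1178 hairpins searched. In all, 383 hairpins held a cluster in at least 1 library, 269 held one in every library and 795 held none.

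The assay was chimeric AGO2 eCLIP, in which RNA is UV-crosslinked to AGO2 in tissue, trimmed with RNase, recovered with an AGO2 antibody and sequenced beside a size-matched input; a ligation step also joins some miRNAs to the RNA they were paired with. The tissue was whole brain of C57Bl/6J pups at P0, the day of birth, with 1 WT library and 2 Mov10 Deletion libraries, the latter from 2 brains, each set against its own input. MOV10 is an RNA helicase that associates with AGO2. The Mov10 Deletion mouse carries a floxed Mov10 gene (exons 6 and 7) with Cre under Emx1, which is active in excitatory neurons of neocortex and hippocampus, crossed with a Mov10 heterozygous mutant. Whole brain also holds cells in which Emx1-Cre is not active. With 1 WT library no test between genotypes was made, and the spread between both Deletion libraries is given in its place. In CLIP of whole tissue, fewer cells of a type and less RNA per cell cannot be told apart.

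A miRNA is made from a hairpin in a longer transcript. Drosha releases the hairpin in the nucleus, Dicer removes its loop in the cytoplasm, and AGO2 keeps a single strand of the duplex, called 5p or 3p after the arm it comes from. Bases 2 to 8 of the loaded strand, the seed, pair with target mRNAs, so miRNAs with the same seed form a family. In brain, miR-124 is the abundant miRNA of neurons, miR-9 acts in neural progenitors and young neurons, miR-128 restrains neuronal excitability, and let-7 and miR-125 rise as progenitors differentiate.

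The mature sequences of well-covered hairpins, with other miRNAs of the same seed, are shown first because the clusters traced their outline. All are RefSeq sequences (GRCm38.p6), written 5′ to 3′ with the seed, bases 2 to 8, in capitals. The let-7 family, which represses proliferation genes, shares the seed GAGGUAG and had the highest summed rpm of the seeds shown in all 3 libraries.
let-7a-5p: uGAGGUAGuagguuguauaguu
let-7b-5p: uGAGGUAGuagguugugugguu
let-7c-5p: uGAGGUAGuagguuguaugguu
let-7i-5p: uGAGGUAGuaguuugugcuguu

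The miR-125 family, which takes part in neuronal differentiation, shares the seed CCCUGAG. Here miR-351-5p is shown for its seed, and its hairpin was among the less covered.
miR-125a-5p: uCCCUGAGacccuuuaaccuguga
miR-125b-5p: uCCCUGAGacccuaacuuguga
miR-351-5p: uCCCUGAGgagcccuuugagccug

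The remaining ones are 5p miRNAs and miR-128-3p, which is taken from the 3p arm. Here miR-100-5p is shown for its seed, which it has in common with miR-99a-5p.
miR-9-5p: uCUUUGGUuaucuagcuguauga
miR-135a-5p: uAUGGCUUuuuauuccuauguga
miR-99a-5p: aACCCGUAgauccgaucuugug
miR-100-5p: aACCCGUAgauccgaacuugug
miR-16-5p: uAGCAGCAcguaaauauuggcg
miR-128-3p: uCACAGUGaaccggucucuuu

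The hairpins themselves are shown with the bases under an enriched AGO2 cluster of the WT library in capitals (mm10 coordinates, RefSeq hairpin sequence). They were chosen to show a 5p locus, a 3p locus and a locus bound on both arms.
Mir125a (chr17:17830812-17830879, plus strand): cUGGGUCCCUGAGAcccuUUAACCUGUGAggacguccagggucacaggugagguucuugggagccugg
Mirlet7b (chr15:85707319-85707403, plus strand): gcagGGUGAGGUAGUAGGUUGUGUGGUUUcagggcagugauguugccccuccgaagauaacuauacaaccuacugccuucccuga
Mir9-3 (chr7:79505264-79505353, plus strand): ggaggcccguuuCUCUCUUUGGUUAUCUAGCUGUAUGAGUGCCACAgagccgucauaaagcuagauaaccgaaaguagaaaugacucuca
Mir135a-2 (chr10:92072086-92072185, minus strand): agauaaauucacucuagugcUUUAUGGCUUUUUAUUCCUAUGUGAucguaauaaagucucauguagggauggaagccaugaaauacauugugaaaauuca
Mir128-1 (chr1:128202361-128202430, plus strand): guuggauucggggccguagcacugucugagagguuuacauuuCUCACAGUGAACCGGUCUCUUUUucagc
Mir126a (chr2:26591357-26591429, plus strand): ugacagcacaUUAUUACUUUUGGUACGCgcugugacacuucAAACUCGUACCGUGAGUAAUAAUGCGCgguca

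In Mirlet7b, Mir9-3 and Mir135a-2 the capitals ran as a single block that held the whole 5p miRNA. The block ended at the last base of the miRNA in Mir135a-2 and 8 nt past it in Mir9-3, and in Mir125a it had a short gap. In Mir128-1 the block lay over the 3p miRNA. Mir126a, an endothelial miRNA hairpin within Egfl7, had a block over each arm and a bare loop between them.

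Each cluster carries its log2 IP over input and the −log10 p of that ratio, both computed by the authors. Enrichment was called where both values reached 3. As ratio and p together fix the read numbers behind a cluster, these were inferred, and every read number below is such an inferred value and not a deposited count. The libraries came out at 7797042, 5594637 and 2850558 IP reads and 6585422, 9734520 and 6800546 input reads. Values given as a series of 3 stand for WT, Deletion 1 and Deletion 2 in that order. At these depths 16 IP reads over a single input read were needed for a call in WT, but 9 and 8 in Deletion 1 and Deletion 2. The level of a hairpin is given as rpm, inferred IP reads per 1000000 IP reads of the library, for its strongest cluster, the one with the most IP reads, while its highest log2 can come from another of its clusters. As a check of the labels, the Mov10 gene had 11, 9 and 9 AGO2 clusters, with 19, 5 and 4 reads in the strongest one, or 2.44, 0.894 and 1.40 rpm. That value does not measure expression and was not confined to the deleted exons.

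AGO2 clusters on hairpins were more often enriched than clusters at large, in each library. In WT 281 of 691 hairpin clusters were enriched (40.7%, Clopper-Pearson 95% interval 37.0 to 44.4%), beside 2.11% of all WT clusters. In Deletion 1 it was 327 of 537 (60.9%, 56.6 to 65.0%), beside 5.18%. In Deletion 2 it was 309 of 535 (57.8%, 53.4 to 62.0%), beside 3.10%. These intervals cover counting error only, and clusters of the same hairpin are not independent. Hairpin clusters made up 3.71%, 1.03% and 1.62% of all enriched clusters.

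**Figure D1:**
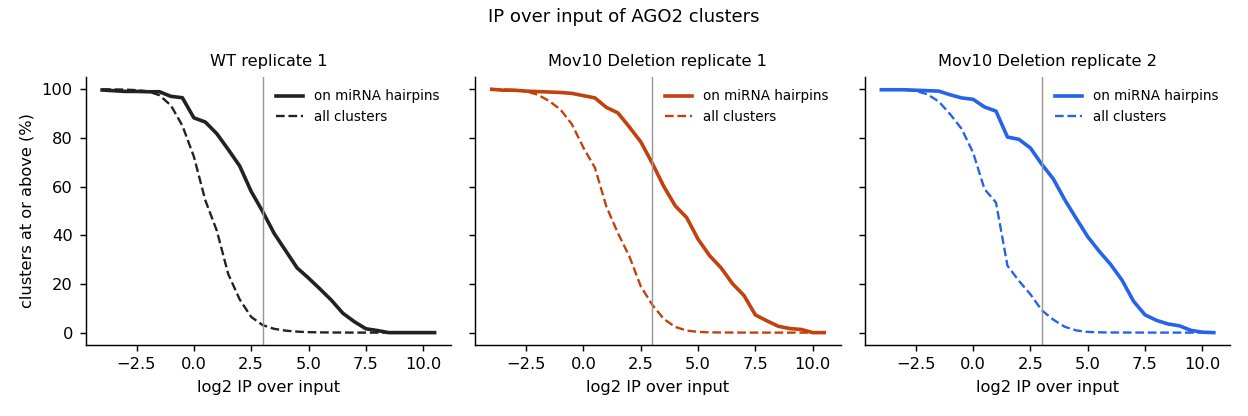
Percent of clusters (y axis) with a log2 IP over input at or above the value on the x axis, for clusters on miRNA hairpins (solid) and all clusters (dashed), with 1 panel per library. The solid line lies to the right of the dashed line in each panel, and the grey line marks the log2 of 3 used for a call.

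The whole distribution was shifted, as the plot of log2 values shows. The median log2 of hairpin clusters was 2.93 in WT, 4.19 in Deletion 1 and 4.25 in Deletion 2, against 0.76, 1.12 and 1.25 for all clusters. Among enriched clusters alone the medians were 5.18, 5.61 and 5.90 on hairpins and 3.79, 3.97 and 4.25 overall. Counted by locus, 38.2% of the 335 hairpins with a WT cluster had an enriched one, 55.5% (176 of 317) in Deletion 1 and 51.4% (163 of 317) in Deletion 2. For all genes with a cluster the shares were 19.1%, 41.5% and 32.5%, so by locus the difference from other genes was smaller than by cluster.

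AGO2 clusters on hairpins were short, and those that adjoined added up to about the length of a mature miRNA. The median width was 13, 16 and 17 nt for hairpin clusters in WT, Deletion 1 and Deletion 2, against 69, 55 and 55 nt for all clusters, and 94.6%, 89.8% and 89.5% of them lay wholly inside the hairpin. Many were pieces of 1 stretch, since 231, 167 and 168 hairpins held more than 1 cluster and 251, 252 and 251 enriched clusters adjoined another. In 100, 102 and 109 adjoining pairs both clusters had the same log2. Joined into runs, the enriched clusters had a median width of 25, 26 and 26 nt. Of 140 runs in WT 89.3% lay on an annotated mature miRNA, as did 163 of 189 in Deletion 1 and 147 of 173 in Deletion 2. These began at a median of 2, 2 and 3 nt before the first base of the miRNA and ended 1 nt after its last base in each library. Both ends were within 3 nt of the miRNA in 67.2% of these runs in WT (84 runs), 67.5% in Deletion 1 (110) and 66.7% in Deletion 2 (98).

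**Figure D2:**
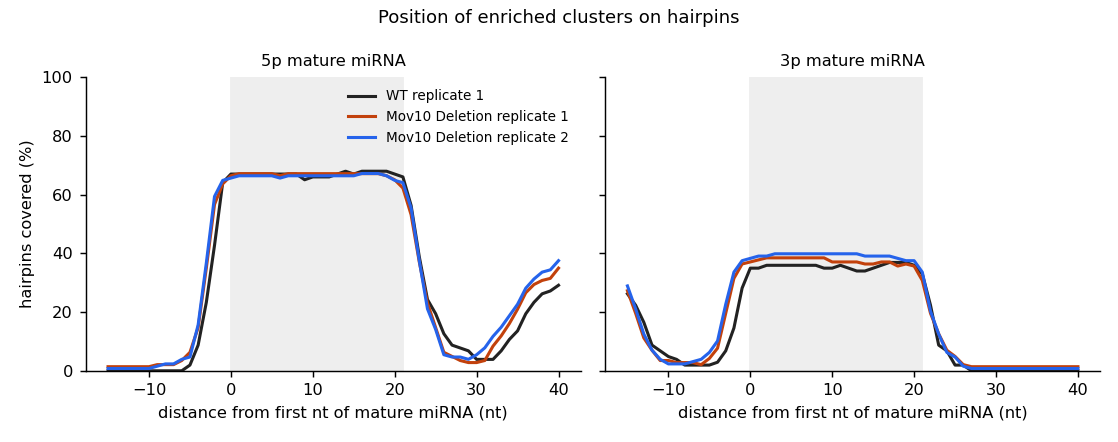
Percent of hairpins with both arms annotated and an enriched cluster that were covered by an enriched cluster at each distance in nt from the first base of the 5p (left) or 3p (right) mature miRNA; the grey band spans 0 to 21 nt. Coverage rises just before the first base and falls just after the last, and is higher on 5p than on 3p arms; the rise at the right of the left panel is the 3p arm.

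Between the arms little was covered. On hairpins with both arms annotated, enriched clusters covered 67.1%, 66.9% and 66.5% of the 5p bases, 35.6%, 37.1% and 39.1% of the 3p bases, 12.2%, 13.3% and 14.8% of the loop and 7.76%, 10.3% and 9.52% of the flanks. The arms made up 52.2%, 51.7% and 51.1% of the length of these hairpins and 85.1%, 79.3% and 81.6% of the covered bases. Outside, windows as long as the hairpin placed on either side of 1151 hairpins held 43, 83 and 82 clusters upstream, of which 2, 10 and 5 were enriched (4.65%, 12.0% and 6.10%). Downstream they held 66, 115 and 116, of which 8, 12 and 9 were enriched (12.1%, 10.4% and 7.76%). These shares lay between those of all clusters and those of hairpin clusters in each library. A cluster that crossed a hairpin edge could count both on the hairpin and in a window. Such hairpin clusters numbered 37, 55 and 56, of which 3, 7 and 6 were enriched.

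The stronger arm by AGO2 reads was 5p in 69 and 3p in 34 hairpins of the WT library. In Deletion 1 the numbers were 93 and 49, and in Deletion 2 they were 81 and 44. Both arms had IP reads in 28, 34 and 30 hairpins. The arm could be set beside a second readout of the same libraries, the chimeric reads, in which target clusters are named with the miRNA that was joined to them. The arm with more IP reads was also the arm named on more target clusters in 100 of 102 hairpins in WT (98.0%, 95% interval 93.1 to 99.8%). It was 92.1% of 139 hairpins in Deletion 1 (86.3 to 96.0%) and 114 of 121 in Deletion 2 (94.2%, 88.4 to 97.6%). Mir296 and Mir340 differed in all 3 libraries. On Mir296 the 5p arm had 5.90, 8.22 and 10.2 rpm, while target clusters named miR-296-5p 13, 34 and 7 times and miR-296-3p 37, 110 and 53 times. On Mir340 the 3p arm had 2.82, 1.97 and 3.16 rpm against 0.128, 1.07 and 0.351 rpm on 5p, but target clusters named 5p 8, 19 and 6 times and 3p 1, 2 and 3 times. The Mir340 numbers are small, down to 1 read.

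Among the 112 hairpins enriched in all 3 libraries, the same ones led in each library by rpm. Mir125a, within Spaca6 on chromosome 17 and the source of miR-125a-5p, had 702 IP reads in WT, 635 in Deletion 1 and 507 in Deletion 2, or 90.0, 114 and 178 rpm. Its highest log2 was 8.21, 8.52 and 10.24. By rpm it ranked first of the 112 in all 3, and by log2 over all hairpins with both this value and target clusters it ranked 3, 6 and 1. Mir9-3, 1 of 3 loci of miR-9, had 80.2, 77.9 and 156 rpm with log2 values of 7.04, 9.57 and 9.05. Mir99a, which lies beside Mirlet7c-1 on chromosome 16, had 60.9, 79.7 and 95.4 rpm. Mir135a-2, whose miR-135a-5p is known from serotonergic neurons and cortex, had 53.4, 77.8 and 128.7 rpm.

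Further down, Mir149, within Gpc1, had 51.8, 74.9 and 96.1 rpm. Mirlet7b had 51.6, 101 and 128.7 rpm and Mirlet7c-1, a locus of let-7c, 45.5, 67.7 and 96.8 rpm. Of the top 10 of each library 9 were the same, and only 11 hairpins appeared in any top 10. The shared ones were Mir125a, Mir9-3, Mir99a, Mir135a-2, Mir149, Mirlet7b, Mirlet7c-1, Mir135b and Mirlet7i. In each library the top 10 held 37.1%, 37.7% and 38.6% of the rpm summed over these 112 hairpins.

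**Figure D3:**
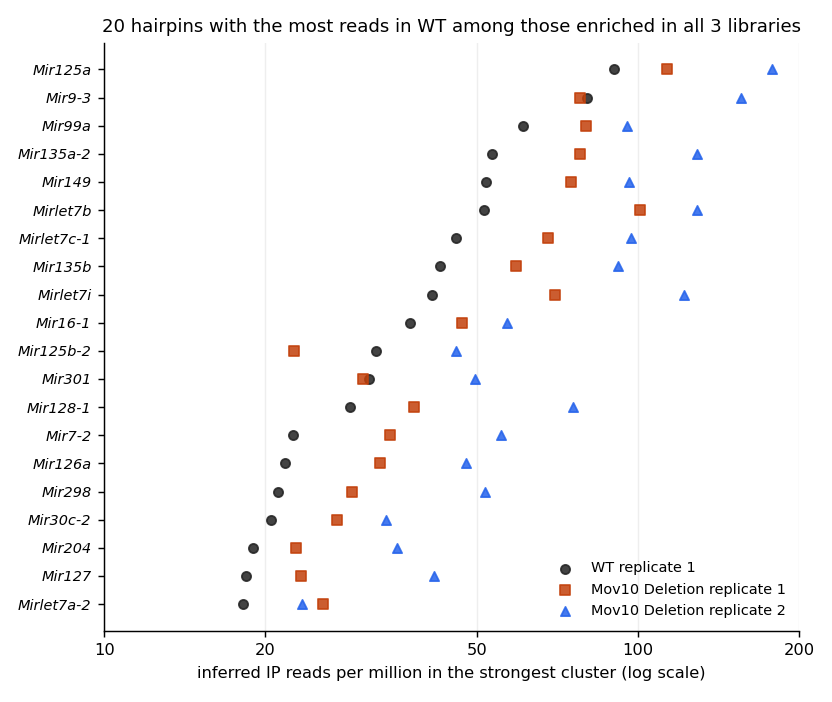
Inferred level in rpm (x axis, log scale) of the strongest AGO2 cluster of 20 hairpins, chosen as those with the most reads in WT among the 112 enriched in all 3 libraries; 1 point per library. Mir125a is highest in each library (90.0, 114 and 178 rpm), and for most hairpins the order of the libraries is WT, Deletion 1, Deletion 2.

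Of the 10 hairpins with the highest lowest log2 over the libraries, 5 were not among the 9 shared ones. By rpm Mir16-1 was in the top 10 of WT and Deletion 1, and Mir128-1 in that of Deletion 2. Mir16-1, in Dleu2 and a source of the cell-cycle regulator miR-16, had log2 values of 7.94, 7.83 and 8.59 on 291, 262 and 162 reads. Mir301, in Ska2, had 7.68, 8.22 and 8.39 on 31.3, 30.6 and 49.5 rpm. Mir128-1, in R3hdm1, had 7.57 in WT and 8.53 in Deletion 1, on 225, 213 and 215 reads. Mir126a had 7.17, 8.32 and 8.34, and Mir298, an imprinted hairpin, 7.12, 8.15 and 8.45. Of these 5 hairpins the lowest value was 7.12 for Mir298 in WT. They were picked for a high lowest log2 among called hairpins, so values above 3 follow from the choice.

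Seed families put several of these loci together. Over the hairpins enriched in all 3 libraries whose RefSeq sequence was in the table used, 101 hairpins shared 67 seeds, and 52 seeds had a single hairpin. The sums leave out the others of the 112, among them Mir135b with 42.6, 59.0 and 91.6 rpm and both enriched loci of miR-124. The GAGGUAG seed of let-7 (8 hairpins, 7 mature miRNAs) summed to 197, 316 and 449 rpm. CCCUGAG of miR-125a, miR-125b and miR-351 (4 hairpins) gave 137.7, 162 and 254 rpm. The miR-9-5p seed CUUUGGU gave 80.2, 77.9 and 156 rpm from Mir9-3 alone. ACCCGUA of miR-99a, miR-99b and miR-100 gave 72.6, 98.3 and 124.2 rpm.

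AUGGCUU of miR-135a gave 70.7, 95.1 and 163 rpm from Mir135a-1 and Mir135a-2, below these 4 seeds in WT but above CUUUGGU in Deletion 1 and above CUUUGGU and ACCCGUA in Deletion 2. AGCAGCA, shared by miR-15a, miR-15b, miR-16 and miR-322, was close to it in WT and Deletion 1 at 70.4, 95.6 and 114 rpm. The bound stretch of Mir135b also holds AUGGCUU, but its 42.6, 59.0 and 91.6 rpm are not in the sum of that seed. The sum and target clusters of AUGGCUU are therefore too low, and its place in this order holds only without Mir135b. Among these seeds the order of target clusters was another one. By target clusters of the miRNAs in these sums, the first 3 in WT were CUUUGGU with 2013, GAGGUAG with 1952 and CCCUGAG with 1428. ACCCGUA had 81 and AUGGCUU 92. In Deletion 1 the first 3 had 2041, 2697 and 1873 and ACCCGUA 171. In Deletion 2 these 4 seeds had 924, 1055, 800 and 56. The count of GAGGUAG leaves out let-7f-5p, which has this seed, because neither of its loci was enriched in all 3 libraries. In WT let-7f-5p was named on 152 target clusters, and with these GAGGUAG would come before CUUUGGU. The WT order of both seeds thus depends on this choice. In both Deletion libraries GAGGUAG was ahead of CUUUGGU without let-7f-5p.

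Hairpins of neural miRNAs were bound for the most part. Of 26 hairpins of miRNAs known from neural tissue (miR-124, miR-9, miR-128, miR-137, miR-138, miR-129, miR-132, miR-212, miR-153, miR-218, miR-219, miR-338 and miR-7), 16 were enriched in WT, 18 in Deletion 1 and 19 in Deletion 2, and 16 in all 3. These were 61.5%, 69.2% and 73.1% of the list, against 10.9%, 14.9% and 13.8% of all 1178 hairpins searched. All have numbers under 1000, and of the 525 hairpins with such a number or named let-7, 126, 167 and 154 were enriched. The lists of let-7, miR-125, miR-181 and miR-26 with miR-30, given below, had higher shares in each library. That of miR-17-92 was higher in WT only, and the remaining lists had lower shares. A high share was thus not particular to neural miRNAs. The median of their highest log2 was 5.46, 6.61 and 6.25, against 2.76, 3.80 and 3.84 over all hairpins with a cluster. Mir124a-1 had 94, 66 and 56 reads with log2 values of 5.31, 6.80 and 6.06. Mir124a-2 had 84, 55 and 48 reads with 3.86, 4.94 and 4.10. Mir124a-3 had no cluster in any library. The loci of miR-124 were enriched but ranked behind many hairpins with far fewer target clusters.

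The 3 loci of miR-9 were uneven as well. Mir9-3 had 625, 436 and 444 reads and Mir9-1 had 15, 28 and 12, enriched in both Deletion libraries. Mir9-2 had 20 reads over 7 input reads in WT, which was not a call, and no cluster in either Deletion library. The mature sequence is the same at these loci. How reads that match several loci were placed is not given in the sources used here. The split between loci of 1 miRNA and the summed reads of such loci are thus uncertain. The same holds for Mir125b-1 (92, 120 and 75 reads) and Mir125b-2 (252, 127 and 130). It also holds for Mirlet7a-1 (1.41, 1.79 and 2.10 rpm) and Mirlet7a-2 (18.2, 25.7 and 23.5 rpm). Over all hairpins, 1052 had mature miRNAs from a single locus, of which 99 were enriched in WT and 140 in Deletion 1. The other 126 shared a mature miRNA with another locus, and 29 and 36 of them were enriched.

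Among the remaining lists, let-7 with miR-98 had 9, 11 and 9 of 12 hairpins enriched. Mir98, in the same family, had 8, 4 and 3 reads and was not called. All 4 hairpins of the miR-125 list were enriched in all 3 libraries. The miR-26 and miR-30 list had 7, 9 and 9 of 10, the miR-181 list 4, 5 and 5 of 6, and the list of miR-15/16, miR-103/107 and miR-23/24/27 had 9, 10 and 10 of 18. In the list of miR-17-92 and its paralogs, which act in proliferating progenitors, 10, 8 and 7 of 16 were enriched. The median of its highest log2 was 4.43 in WT, 3.80 in Deletion 1 and 3.78 in Deletion 2, whereas in each other list that median was higher in both Deletion libraries than in WT. None of these differences was tested.

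The imprinted Dlk1-Dio3 region on chromosome 12, which encodes a large cluster of miRNAs expressed in brain, had 20, 29 and 23 of 53 hairpins enriched and 16 in all 3. Mir127, which lies antisense to Rtl1, had 18.5, 23.4 and 41.4 rpm and Mir136 15.5, 23.1 and 41.4 rpm. Mir493 of this region was the hairpin with the most WT reads of all, 1116, but it had 930 input reads, a log2 of 0.02 and no cluster in Deletion. The other extreme was the type of hairpins repeated in an intron of Sfmbt2 (miR-297, miR-466, miR-467 and miR-669), of which 0, 2 and 0 of 81 were enriched and 70 had no cluster anywhere. The 2 called in Deletion 1 were Mir297a-2 with 11 reads and Mir669c with 10.

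The labelled tissue was also checked against hairpins of other tissues. Of 28 hairpins of muscle, liver, pancreas, blood and epithelial miRNAs, 3 were enriched in WT, namely Mir142, Mir150 and Mir451a of blood cells. Mir144 joined them in Deletion 1, and Mir217 and Mir375 of pancreas in Deletion 2. The enriched share of the list was 10.7%, 14.3% and 17.9%, against 10.9%, 14.9% and 13.8% of all hairpins searched. By count, this list was thus called about as often as hairpins at large. All its hairpins have numbers under 1000, however. Of the 525 hairpins with such a number or named let-7, 126, 167 and 154 were enriched. Beside that class the list was called less often in each library. Mir451a, of red blood cells, had 68, 120 and 75 reads (8.72, 21.4 and 26.3 rpm). Mir142, of leukocytes, had 38, 44 and 42. In this list 13 hairpins had no cluster in any library. No muscle, liver or epithelial hairpin was called. All target clusters naming this list's miRNAs came to 11, 70 and 28. Blood in the brains was not measured otherwise, and its part in the other results was not tested.

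Numbering in the miRNA registry roughly follows discovery, and late entries were seldom enriched. Of 525 hairpins with a number under 1000 or named let-7, 126, 167 and 154 were enriched. Of 653 with a number of 1000 or above, 2, 9 and 9 were. Those enriched in all 3 were Mir1983 (4.62, 8.22 and 7.02 rpm) and Mir1249 (10.1, 12.7 and 20.7 rpm). Of 758 hairpins inside another gene on the same strand, 68, 101 and 98 were enriched, and of the 420 outside such a gene, 60, 75 and 65. Exon or intron was not assigned.

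The design asks which hairpins differ with genotype. In all, 200 hairpins were enriched in at least 1 library and 112 in all 3. These 112 were 87.5% of the hairpins enriched in WT and 79.4% of those enriched in both Deletion libraries. A further 29 were enriched in both Deletion libraries and not in WT, 14 in WT and a single Deletion library, 2 in WT alone and 43 in 1 Deletion library alone. So more hairpins were called in only 1 of both Deletion libraries than in both of them and not in WT. Among all genes with a cluster, 19.1%, 41.5% and 32.5% had an enriched one. More calls in Deletion than in WT were thus not particular to hairpins. The overlap of calls between libraries over all genes is not given here.

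The 29 hairpins called only in Deletion were all present in WT. Each had a WT cluster with a log2 above 0, 12 had a log2 of at least 3, and their WT reads ranged from 2 to 46 with a median of 12. In 26 the WT reads were under the 16 that WT needs for a call. Their Deletion reads ranged from 12 to 40 in Deletion 1 and from 8 to 59 in Deletion 2. With a minimum of 16 IP reads in every library, a threshold set after seeing the data, 103 hairpins were enriched in all 3. The count in both Deletion libraries but not in WT then came to 2 in place of 29. The count in WT but not in both Deletion libraries came to 25, of which 9 were in neither. The 16 reads are the fewest that a WT call needs, so this minimum could remove Deletion calls but no WT call. The count without WT could thus only fall, and the count with WT only rise, through the choice of the minimum. Genotype and the depth of each IP and input cannot be told apart in these calls.

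**Figure D4:**
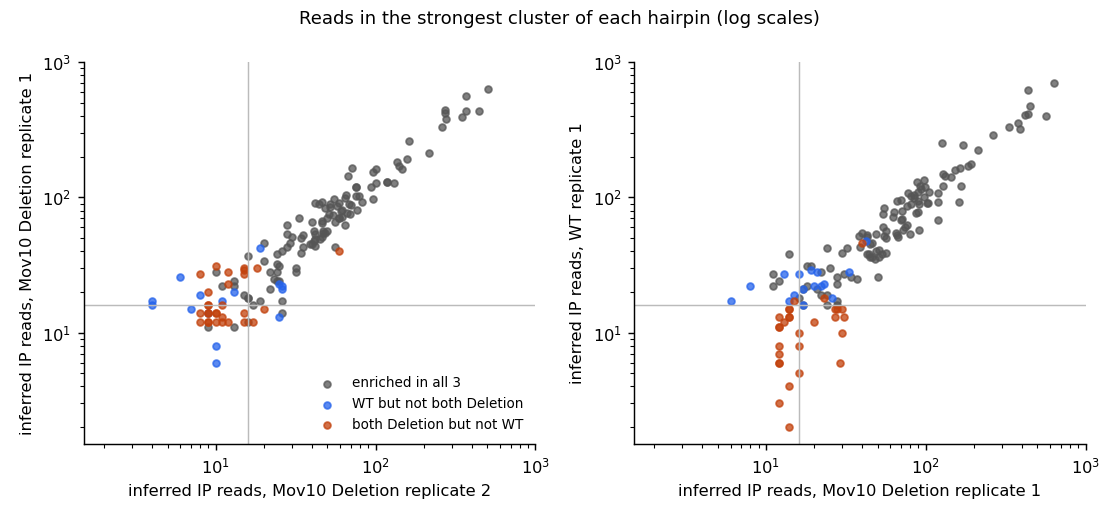
Inferred IP reads (log axes) in the strongest cluster of each hairpin, both Deletion libraries against each other (left) and WT against Deletion 1 (right), coloured by the libraries in which the hairpin was enriched; grey lines mark 16 reads. Hairpins enriched in both Deletion libraries but not in WT (red) sit in the low corner, 26 of 29 of them under 16 WT reads.

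In rpm, WT was below both Deletion libraries for each of these 29 hairpins. The class was picked by its lack of a WT call, which favours a low WT level. The same direction held for 98 of the 112 hairpins enriched in all 3 libraries, so it was not particular to this class.

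Of this class the 5 hairpins are given by name whose lower log2 of both Deletion libraries was highest. Mir1298, in Htr2c, had 10 reads in WT, 30 in Deletion 1 and 15 in Deletion 2 with log2 values of 3.08, 5.71 and 5.16. Mir187 had 8, 16 and 11 reads and Mir181a-2 15, 30 and 18. Mir6540, in Gap43, had 17, 15 and 20 reads, or 2.18, 2.68 and 7.02 rpm. Mir433 (chr12:109591715-109591838, plus strand), of the Dlk1-Dio3 region, differed from the others in that it was well covered everywhere. Its strongest cluster had 46 reads over 9 input reads in WT, 40 over 4 in Deletion 1 and 59 over 4 in Deletion 2, and its highest log2 was 2.11, 4.97 and 5.14.

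Others in the class belong to families already named. Mir9-1 had 15, 28 and 12 reads, Mirlet7f-2 13, 12 and 17, Mir26a-2 4, 14 and 9, and Mir132, induced by neuronal activity, 13, 14 and 15. Mir34a, a target of p53, had 2 reads in WT and 14 and 8 in Deletion. None of these reached 16 WT reads.

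In the other direction, Mir19a (chr14:115044000-115044081) and Mir92-1 (chr14:115044427-115044506, both plus strand), of the miR-17-92 cluster on chromosome 14, were enriched in WT alone. Mir19a had 48, 42 and 19 IP reads, and over 2, 12 and 7 input reads its log2 was 4.34 in WT, 2.61 in Deletion 1 and again under 3 in Deletion 2. Mir92-1 had 22, 22 and 26 IP reads over 1, 12 and 9 input reads, for 4.22, 1.67 and 2.78. In rpm Mir19a had 6.16, 7.51 and 6.67 and Mir92-1 2.82, 3.93 and 9.12, so in both the WT level was the lowest, and the input reads were fewest in WT. Of the 14 enriched in WT and 1 Deletion library, Mir222 had 28, 21 and 26 IP reads over 1, 5 and 4 input reads.

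Among the 112 hairpins enriched in all 3 libraries levels ranked much alike. The median was 7.89 rpm in WT (2.05 to 90.0), 11.9 in Deletion 1 (1.97 to 114) and 16.7 in Deletion 2 (3.16 to 178). On the log2 scale WT was lower than the mean of the Deletion libraries by a median difference of −0.74 (SD over hairpins 0.40), and Deletion 1 was lower than Deletion 2 by −0.63 (SD 0.40). The difference between genotypes was thus close in size to that between both Deletion libraries. WT was below both Deletion libraries for 98 hairpins, between them for 14 and above both for 0. With each library centred on its own median over these hairpins, WT was above both for 50, below both for 31 and between for 31.

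Spearman's rho across the 112 hairpins was 0.941 between WT and Deletion 1, 0.912 between WT and Deletion 2 and 0.944 between the Deletion libraries, as a description without a p, since these hairpins share families and transcripts. After centring, Mir744 was lowest in WT relative to Deletion (26, 50 and 34 reads, centred log2 difference −0.79), followed by Mir598 (16, 28 and 22 reads, −0.76). Mir540 was highest (27, 11 and 13 reads, 1.05). Most of these had under 50 reads. The SD of the centred difference was 0.40 between genotypes and 0.40 between the Deletion libraries. Both Deletion libraries share cluster coordinates for 512 of their hairpin clusters, while WT and Deletion 1 share 21. Over the 260 shared clusters enriched in both, their log2 differed by −0.12 on average with an SD of 0.78.

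Hairpin reads and the use of a miRNA in chimeras were then set side by side. Target clusters named 328, 459 and 379 miRNAs, of which 328, 458 and 377 matched a hairpin, with 22074, 30526 and 13468 assignments in total. Hairpins with an enriched cluster had a median of 28.5, 36 and 18 target clusters naming their miRNAs, hairpins with a cluster that was not enriched had 1 in each library, and hairpins without a cluster 0. Of the enriched hairpins 126, 173 and 154 had at least 1 target cluster and 2, 3 and 9 had none. Spearman's rho across hairpins with both readouts was 0.556, 0.622 and 0.575 for rpm (n = 237, 249 and 233 hairpins). For the highest log2 it was 0.557, 0.586 and 0.528 (n = 242, 253 and 237). No p is given, because both readouts come from 1 library and loci of the same miRNA share their target clusters.

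**Figure D5:**
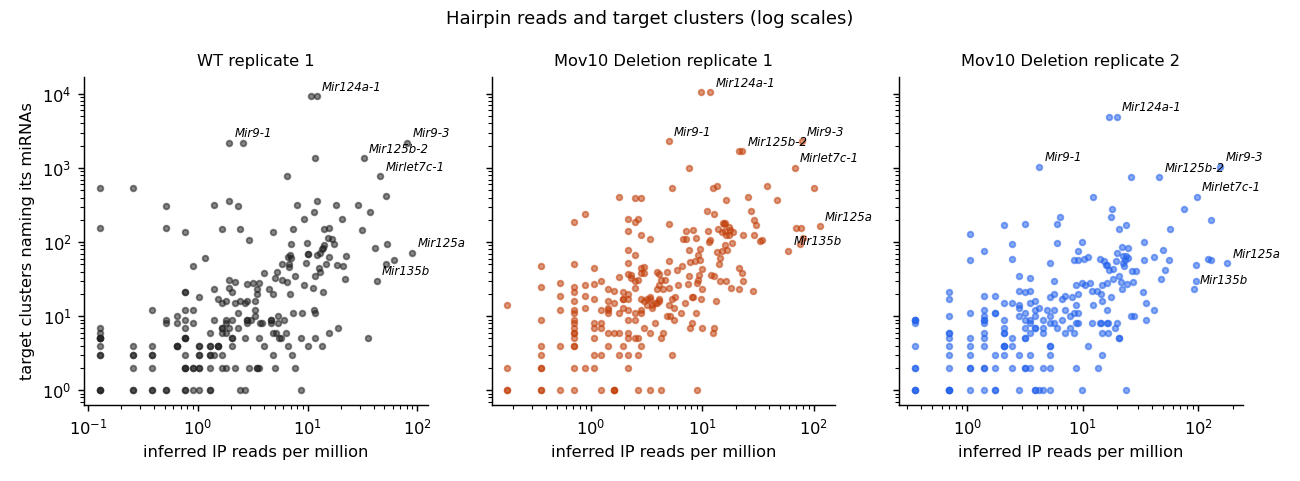
Inferred level in rpm of each hairpin's strongest cluster (x axis, log scale) against the number of target clusters naming its miRNAs (y axis, log scale), with 1 panel per library and 1 point per hairpin. Counts rise together across hairpins with rho of 0.556 to 0.622, with Mir124a-1 high on the y axis at a middling x and Mir125a and Mir135b lower on the y axis than Mir124a-1 at a higher x.

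Single miRNAs stood far from the common trend, as the plot of target clusters shows. The first by target clusters was miR-124-3p, named 9312, 10630 and 4962 times, 42.2%, 34.8% and 36.8% of all assignments. Mir124a-1 ranked 37, 57 and 46 by rpm among the 112 hairpins enriched in all 3. Mir125a ranked first of these 112 by rpm with 72, 164 and 52 target clusters. Its family member miR-125b-5p, with the same seed, was named on 1354, 1695 and 742 target clusters.

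Set against reads, the spread was wide. In each library 103 miRNAs had an enriched locus, which for let-7f-5p was not the same one in all 3. Over these 103, target clusters per 100 IP reads on their loci had a median of 38.2, 88.9 and 48.8. The quartiles were 12.3 to 87.6, 36.9 to 161 and 17.8 to 94.7. For miR-124-3p the value was 5231, 8785 and 4771, and for miR-26a-5p 1409, 1327 and 669. It was 394, 686 and 362 for miR-125b-5p and 305, 440 and 203 for miR-9-5p. Among the low ones were miR-125a-5p with 10.3, 25.7 and 10.3, miR-99a-5p with 11.8, 25.3 and 10.3 and miR-135b-5p with 9.04, 22.7 and 8.81. Others were lower still, down to 0, 4.17 and 0 for miR-539-5p. These miRNAs, picked from both ends of the range, were far apart in all 3 libraries, further than the libraries were from each other. The high ones named here have 3 (miR-124-3p, miR-9-5p) or 2 loci and the low ones 1. Reads that match several loci may have been lost, which would raise the ratio, and this was not tested. Yet miR-130a-3p with 1 locus had 470, 618 and 194, and miR-135a-5p with 2 loci had 16.7, 28.8 and 12.1.

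Some miRNAs were named without any cluster on their hairpin. There were 45, 120 and 79 of them, holding 5.01%, 9.43% and 9.35% of the assignments. Most of these assignments were from miR-466i-5p, which was named on 913, 1673 and 794 target clusters while Mir466i had no AGO2 cluster in any library. For miR-466f-3p, named 532, 441 and 146 times, Mir466f-3 and Mir466f-4 had 2 and 1 reads in WT and no locus had a cluster in Deletion. Below these, miR-3473b had 38, 172 and 63 and miR-24-3p, a broadly expressed miRNA, 34, 66 and 31. In Deletion 1 let-7k came before miR-24-3p with 79.

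Some target clusters also lay on hairpins. Whether the hairpin or a mature strand was joined to the named miRNA was not tested. Target clusters overlapped 16, 32 and 19 hairpins with 25, 43 and 26 assignments, 0.113%, 0.141% and 0.193% of the total. A hairpin's own miRNA was named in 8, 7 and 10 of these. In WT miR-466i-5p took 28.0% (95% interval 12.1 to 49.4%) of the assignments on hairpins against 4.14% of all assignments. In Deletion 1 it took 30.2% (17.2 to 46.1%) against 5.48%, and in Deletion 2 23.1% (8.97 to 43.6%) against 5.90%. The share of miR-124-3p was 12.0%, 18.6% and 3.85%, against 42.2%, 34.8% and 36.8% overall. The interval of miR-466i-5p lay above its overall share in each library, but the numbers are small and neighbouring clusters can come from the same chimeras.

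Only 7 pairs of a hairpin and a named miRNA recurred in all 3 libraries. Mir329 and Mir342 were paired with miR-466i-5p, Mir6236 with miR-6236, Mir7-2 with miR-7a-5p, Mir9-3 with miR-690, and Mir668 with both of its own miRNAs. On Mir668 (chr12:109734732-109734797, plus strand) the target cluster of miR-668-3p lay over the 5p arm (score 18.8, 7.89 and 13.0), and the clusters of miR-668-5p lay over the 3p arm, so each strand was named on the opposite arm. On Mir7-2, by contrast, the cluster of miR-7a-5p lay over miR-7a-5p itself. The meaning of the score is not given in the sources used here.

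The pair of Mir9-3 and miR-690 had scores of 33.2 and 92.4 in WT, 25.1 and 21.7 in Deletion 1 and 16.7 and 14.4 in Deletion 2. Both sequences are shown with their longest perfect complement in capitals, 7 nt at bases 16 to 22 of miR-690 and bases 3 to 9 of miR-9-5p. These bases overlap the seed of miR-9-5p and lie outside that of miR-690. A match of this length is a description of the sequences and not of a site.
miR-690: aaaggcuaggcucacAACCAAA
miR-9-5p: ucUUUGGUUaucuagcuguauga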

How the data were processed

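AGO2 was immunoprecipitated from UV-crosslinked P0 brain in 3 libraries. Their 3 inputs entered only through the IP over input values. According to the study's methods and the submitters' processing notes, UMIs and adapters were trimmed (UMI-tools 1.1.1, cutadapt 3.2), reads on repeats and rRNA were removed, the rest was mapped to mm10 (STAR 2.7.7a), duplicates were removed and CLIPper called clusters. Chimeric reads were split by miRNA with Bowtie 1.2.3. The authors deposited for each AGO2 cluster a −log10 p, limited to 400, and a log2 of IP over input. They deposited for each target cluster a score whose meaning is not given in the sources used here, as is also the case for the placement of reads that fit several loci and for whether Deletion clusters were called on pooled samples.

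Clusters were joined by strand to RefSeq miRNA genes (GRCm38.p6). Of 1228 such genes 1180 had a Mir symbol, and 48 with Gm symbols were left out. Strand came from the miRNA sequence table for 1027 genes and by name from GENCODE vM39 for 151; 2 genes without a strand were left out, so that 1178 hairpins were searched. At least 1 nt had to overlap. Reads were inferred as the whole IP and input numbers that gave the deposited log2 and came closest to the deposited −log10 p. The tolerance on −log10 p was 0.001 and wider where −log10 p was high. This worked for 666, 526 and 516 of the hairpin clusters, and none of the others was enriched. An inferred input of 1 stands for 0 or 1 read. The inference was tested on simulated data. Intervals are Clopper-Pearson at 95% and cover counting error only.

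Named hairpins were those of miR-124, miR-9, miR-125b and miR-466i, those of the 10 miRNAs with most target clusters in WT, the 10 with the highest lowest log2 over the libraries among those enriched in all 3, and up to 5 per genotype enriched in that genotype only, for Deletion those whose lower log2 of both libraries was highest. Hairpins that lead by reads, by arm or by shared target clusters, and examples of the lists, were named after their values were seen. The members, lists and rules were chosen with earlier results of these data known. With 1 WT library no test was made. Python 3.11.15, pandas 2.3.3 and scipy 1.17.1 were used.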

Additional observations from a re-analysis of the deposited data

Results flagged for a closer look

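An enriched AGO2 cluster opposite a hairpin, outside the same-strand clusters described above, was found once where no hairpin lies on its own strand. It lay opposite Mir1966 in Deletion 1, had 10 IP reads over 1 input read (log2 4.12, −log10 p 3.51) and was 110 nt wide. The remaining enriched clusters on the opposite strand, 22 in WT, 16 in Deletion 1 and 21 in Deletion 2, all lay on a hairpin of that strand, such as Mir126a opposite Mir126b.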

How the results depend on the processing

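Over all hairpins, 58 alternative values stayed close to the reported ones and 12 moved. With a −log10 p of at least 5 the enriched share of hairpin clusters was 33.6%, 52.9% and 48.0%. The median width was 12, 13 and 13 nt for enriched clusters only, and 16 nt in Deletion 2 where most of a cluster had to lie inside the hairpin. The hairpins enriched in both Deletion libraries came to 163 to 176 with either library left out. The median highest log2 of named hairpins was 5.31 in WT and 6.95 in Deletion 1, and 4.43 and 6.03 for the cluster that covers most of the hairpin. Under that choice Mir125b-1 in Deletion 2 had −1.20 in place of 7.46. Spearman's rho with target clusters was 0.608 in WT for hairpins whose miRNAs come from 1 locus, 0.619 with loci of 1 miRNA taken as 1 point, and 0.575 in Deletion 2 with rpm; the latter choices were made after seeing the data. The cause of these shifts was not tested. No paired analysis was possible because WT and Mov10 Deletion share only replicate number 1 and no test was made.

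Depth limits the calls: an enriched hairpin cluster had a median of 55, 46 and 39 IP reads, and 70.5%, 60.9% and 68.0% of enriched clusters rested on an input of 0 or 1 read, so their log2 is set by the IP reads and the library sizes.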

Other observations

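Among miRNA genes with Gm symbols, which the rule left out, 46 had a strand, 2 held an AGO2 cluster in each library and 0 an enriched one.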
